A study of Homo sapiens with 6 samples.

Results

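Collagen chain genes encode the α chains that assemble, 3 at a time, into the collagens of the extracellular matrix. The 44 genes described here are all human protein-coding genes whose symbol is COL, digits, A and digits, such as COL1A1. The rule uses the symbol and no measured value, and all 44 had a row among the 57773 genes of the count table. It was, however, chosen with earlier results of these data known. They were divided by protein type into 11 fibrillar chains, 6 basement membrane chains, 10 FACIT chains (fibril-associated collagens with interrupted triple helices), 5 beaded filament chains, 4 transmembrane chains and 8 other collagens.

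The cells were U251, a long-established human line derived from a glioblastoma. One stable line carried a lentivirus for overexpression of PD-L1, the CD274 product that engages PD-1 on T cells, and the other carried the lentiviral vector as control. Each line gave 3 separate dishes (PD-L1 1 to 3 and Vector 1 to 3), at passage 5 to 10, collected 12 h after replating in DMEM with 10% FBS. Poly-A RNA was sequenced with a kit that does not mark strand. The labels do not say whether either line is 1 clone or a pool, so p-values here rest on variation among dishes of 1 line per group, and the construct cannot be told apart from other differences between the lines.

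Fibrillar collagens form the banded fibrils that bear tension, type IV collagen forms the sheet of basement membranes, FACIT chains sit on fibril surfaces, and type VI collagen builds beaded filaments that link cells to the matrix. Each collagen molecule is a trimer, and many types need partner chains in fixed proportion, such as 1 COL1A2 chain for each pair of COL1A1 chains in type I collagen. In normal brain, fibrillar collagen is scarce outside vessels and meninges, whereas gliomas and their vessels can deposit type I, IV and VI collagen.

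Dish totals ranged from 15678989 to 22270509 counts, and a level of 3 counts corresponded to 0.138 to 0.185 CPM (the count relative to library size, after trimmed-mean scaling). CD274 averaged 1299.5 ± 61.44 CPM with the PD-L1 construct, against 2.41 ± 0.97 CPM without it (SD, n = 3 each), matching the labels in all 6 dishes. PD-L1 dish 3 stood apart: across genes, its chi-square per degree of freedom against PD-L1 dishes 1 and 2 was 14.55 and 13.59, against 2.84 between those 2 dishes and 4.87 to 9.15 between Vector dishes. Values without it are given below. Of 7 glioma and astrocyte markers, 6 were called lower in PD-L1 dishes at the threshold used for collagens below, which called 7.20% of all tested genes lower (summed level 412 to 509 CPM against 641 to 739). VIM and GJA1 were abundant, while GFAP, the defining astrocyte filament, averaged only 1.70 CPM with PD-L1 against 3.18 CPM with vector. Of 9 fibroblast and pericyte markers 8 were tested, and 5 were called lower (summed level 56.5 to 82.9 CPM against 92.6 to 140 CPM). DCN, with 1 to 3 counts in PD-L1 dishes, averaged 0.11 against 1.09 CPM, and had enough counts to be tested only through the Vector dishes. LUM (log2 fold change -0.32), RGS5 (0.14) and KCNJ8 (0.18) were not called. KCNJ8 averaged 20.0 CPM with PD-L1 against 17.7 CPM with vector. Endothelial markers summed to 3.03 to 3.91 CPM in PD-L1 and 4.79 to 5.92 CPM in Vector dishes, and 2 of 3 tested were called lower (KDR, log2 fold change -1.14, FDR 0.0221, and TEK, -2.98, FDR 1.72e-04). TEK had 7, 4 and 3 counts in PD-L1 dishes against 52, 37 and 35 in Vector dishes. It had enough counts to be tested only through the Vector dishes, and its fold is near the floor. CDH5, the other tested one, had the opposite sign and was not called. It averaged 2.11 CPM with PD-L1 against 1.30 CPM with vector (log2 fold change 0.71, FDR 0.151). Immune markers summed to 2.73 to 2.83 against 2.25 to 3.98 CPM and epithelial markers to 2.34 to 3.22 against 3.13 to 3.55 CPM, with 0 of 1 and 0 of 2 tested markers called. No marker matched to a gene ID was at 0 in all dishes, although CD68 had a total of 1 read. Of 5 endothelial markers listed 4 were matched, and PECAM1, which was not, is absent from the endothelial sums. The part of these marker levels in the collagen results was not tested, and in bulk RNA fewer cells of a type and less RNA per cell cannot be told apart.

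The sequences just upstream of several collagen genes are shown first, because type IV genes lie in pairs that start head to head, and both genes of 1 pair fell. RefSeq windows (build GRCh38.p14) were matched by symbol for 32 of the 44 genes. COL4A1 and COL4A2 start 127 bases apart on chromosome 13 and are transcribed away from each other, COL4A6 and COL4A5 start 380 bases apart on chromosome X, and COL4A4 and COL4A3 start 419 bases apart on chromosome 2. Below are the 126 bases between the COL4A1 and COL4A2 starts (chr13:110307158-110307283, plus strand, read toward COL4A2), and the 250 bases before COL4A5 (chrX:108439588-108439837, plus strand) and before COL4A6 (chrX:108439459-108439708, minus strand), which overlap each other. For the fibrillar, beaded filament and FACIT types, an abundant gene that fell and had a window is shown: COL5A1 (chr9:134641553-134641802, plus strand), COL6A2 (chr21:46097862-46098111, plus strand) and COL12A1 (chr6:75206054-75206303, minus strand). All are written 5′ to 3′ on the gene's strand, and capitals mark a GC box (GGGCGG, or CCGCCC on the other strand) or a CCAAT box (CCAAT, or ATTGG on the other strand).
COL4A1-COL4A2: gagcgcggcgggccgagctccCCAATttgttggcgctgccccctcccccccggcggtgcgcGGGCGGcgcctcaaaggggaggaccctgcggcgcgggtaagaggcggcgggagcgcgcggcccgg
COL4A5: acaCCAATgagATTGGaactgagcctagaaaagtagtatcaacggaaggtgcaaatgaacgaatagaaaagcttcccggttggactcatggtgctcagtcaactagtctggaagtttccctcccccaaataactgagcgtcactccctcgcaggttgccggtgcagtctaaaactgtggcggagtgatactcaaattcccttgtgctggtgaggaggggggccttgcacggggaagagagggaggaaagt
COL4A6: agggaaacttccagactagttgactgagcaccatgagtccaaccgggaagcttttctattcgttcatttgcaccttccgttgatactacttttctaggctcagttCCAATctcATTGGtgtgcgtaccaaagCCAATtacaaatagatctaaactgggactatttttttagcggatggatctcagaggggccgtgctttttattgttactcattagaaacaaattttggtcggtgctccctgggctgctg
COL5A1: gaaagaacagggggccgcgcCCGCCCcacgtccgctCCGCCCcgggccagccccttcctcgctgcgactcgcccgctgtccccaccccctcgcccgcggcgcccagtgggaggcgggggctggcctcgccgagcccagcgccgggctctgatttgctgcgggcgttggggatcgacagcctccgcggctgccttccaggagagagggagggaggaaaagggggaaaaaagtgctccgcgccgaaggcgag
COL6A2: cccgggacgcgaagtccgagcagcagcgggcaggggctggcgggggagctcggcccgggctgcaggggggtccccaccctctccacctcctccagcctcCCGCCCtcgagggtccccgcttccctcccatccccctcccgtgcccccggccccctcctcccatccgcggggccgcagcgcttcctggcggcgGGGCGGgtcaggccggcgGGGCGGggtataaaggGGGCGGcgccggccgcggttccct
COL12A1: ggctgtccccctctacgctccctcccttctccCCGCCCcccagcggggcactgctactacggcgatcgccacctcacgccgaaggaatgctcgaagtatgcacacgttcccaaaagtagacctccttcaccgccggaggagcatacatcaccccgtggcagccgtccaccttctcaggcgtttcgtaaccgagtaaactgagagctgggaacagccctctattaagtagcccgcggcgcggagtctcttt

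The stretch shared by COL4A1 and COL4A2 held 1 GC box and 1 CCAAT box at 80.2% GC. The windows shown for COL4A5 and COL4A6 held no GC box and 2 and 3 CCAAT boxes, at 51.2% and 44.0% GC. The 2 of COL4A5 are the same bases as 2 of the 3 of COL4A6, read on the other strand. COL4A6 has another RefSeq start, 1416 bases from that of COL4A5, whose window held 1 GC box and no CCAAT box at 48.8% GC. COL5A1 had 2 GC boxes, COL6A2 had 4 together with a TATA box (TATAAA), and COL12A1 had 1. Searched on both strands of the 250 bases before the start, a GC box was present for 21 of 32 collagen genes, against 42.6% of all 35116 windows in the table. A CCAAT box was present for 11 of 32 genes (32.0% of all windows), a TATA box for 7 (10.7%) and an AP-1 site (TGANTCA) for 1 (6.57%). A gene with several windows counted once if any of them held the motif, so the shares over genes and over windows have different bases: per window, 24 of the 44 collagen windows held a GC box. Among genes with a window, a GC box was present for 7 of the 8 that were lower in PD-L1 dishes and for 11 of the 18 that were tested and not called. That difference was not tested. The lower genes COL1A1, COL1A2, COL5A2, COL6A1, COL8A1 and COL14A1 had no window, and the windows of COL4A1 and COL4A2 share the GC box and the CCAAT box between their starts. Shared boxes, also those of COL4A5 and COL4A6, were counted for both genes. Collagen windows had a median of 64.2% GC, against 58.0% for all windows, and a match describes letters in the window and not a bound site.

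Collagen transcripts were a smaller share of the RNA in the PD-L1 line. They made up 0.172%, 0.192% and 0.210% of the counts in PD-L1 dishes 1 to 3, and 0.452%, 0.292% and 0.378% in Vector dishes 1 to 3. All PD-L1 dishes lay below all Vector dishes. Summed over the 44 genes, the Vector level of 3814.9 ± 822 CPM (SD, n = 3) was 2.02 times the PD-L1 level of 1886.2 ± 250 CPM (SD, n = 3). By gene, 35 of the 44 had enough counts to be tested. Of these, 14 fell at a false discovery rate (FDR) of 0.05 in edgeR's quasi-likelihood test, 0 were called higher, and 21 were not called. The count of higher genes was also 0 with DESeq2, with limma-voom and at an unadjusted p under 0.05. Over all 15818 tested genes the same rule called 7.20% lower and 1.55% higher, 8.75% in all. The median log2 fold change (PD-L1 minus Vector) of the tested collagens was -0.39, over all tested genes 0.02. For 16 of the 35 tested collagens every PD-L1 dish was below every Vector dish, an arrangement found in 15.5% of all tested genes, and for 0 of the 35 was every PD-L1 dish above (12.1%). Without PD-L1 dish 3 the counts were 11 lower and 1 higher. That fit called far more of all tested genes, 2241 lower and 1271 higher, against 1139 and 245 with all dishes.

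**Figure D1:**
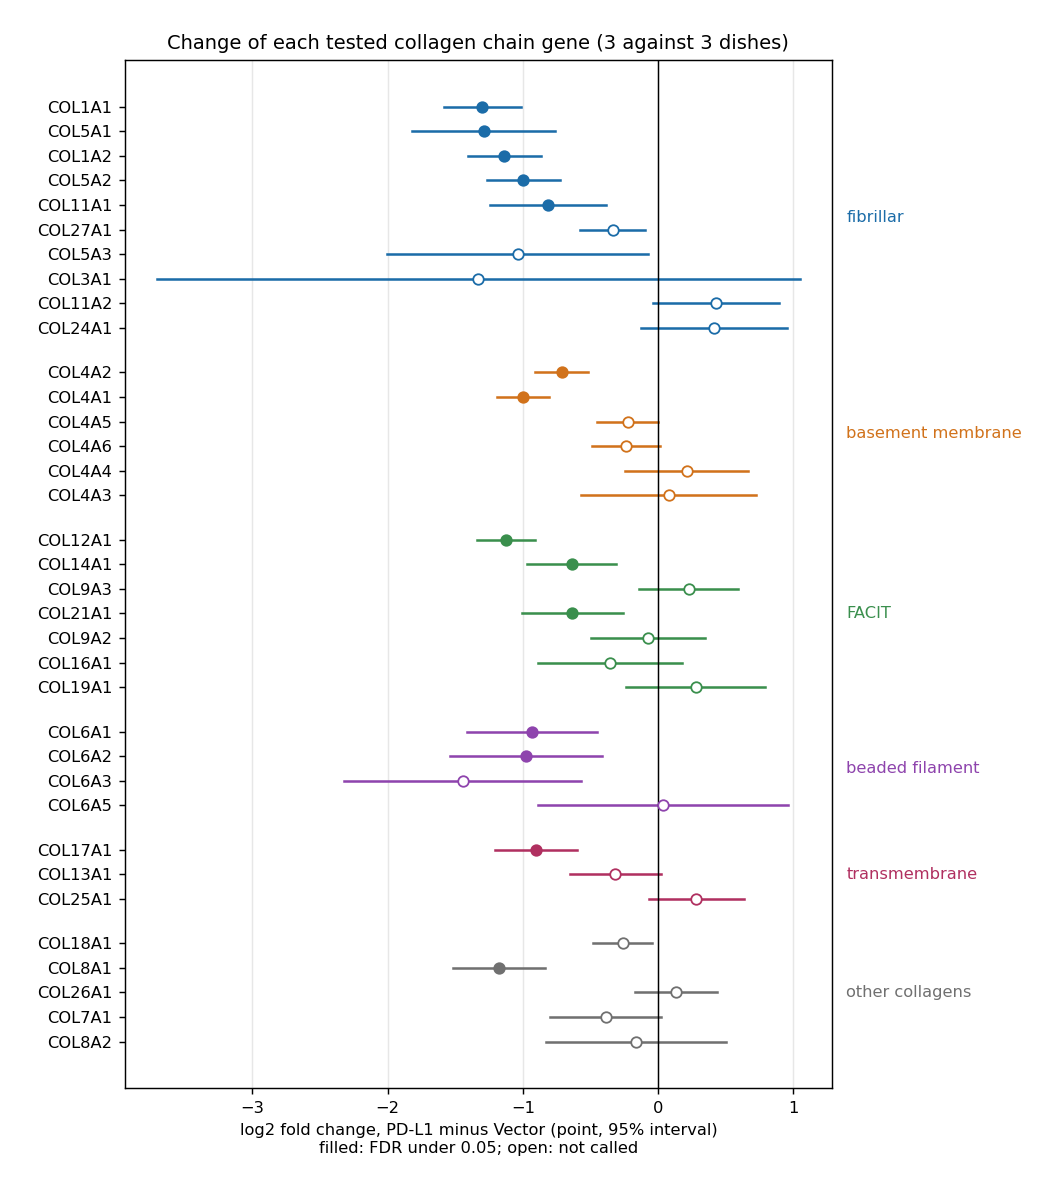
Log2 fold change (PD-L1 minus Vector) on the x axis for each of the 35 tested collagen genes, with its 95% confidence interval derived from edgeR's F statistic, grouped and coloured by type. Filled points passed an FDR of 0.05. All 14 filled points lie left of 0, and the estimates run from -1.45 (COL6A3, not called) to 0.43 (COL11A2, not called).

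Of the 11 fibrillar genes 10 were tested and 5 fell, with a median log2 fold change of -1.02 over the 10. Both chains of type I collagen, the main fibril collagen of bone, skin and tendon, were among them. COL1A1 read 303, 342 and 376 CPM in PD-L1 dishes and 990, 652 and 868 CPM in Vector dishes. The lowest Vector dish was well above the highest PD-L1 dish, and the log2 fold change was -1.30 ± 0.13 (SE, FDR 1.25e-04). COL1A2 read 137, 151 and 155 CPM against 391, 255 and 329 CPM, again with no overlap, a change of -1.14 ± 0.12 (FDR 1.72e-04).

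Type V collagen starts type I fibrils and limits their width. COL5A1 read 135, 152 and 191 CPM in PD-L1 dishes and 510, 274 and 382 CPM in Vector dishes, and fell by 1.29 ± 0.23 on the log2 scale (FDR 0.0138). Its groups did not overlap, but the call was lost when any of the PD-L1 dishes was left out (FDR 0.0816 to 0.145) and with no low-count filter. COL5A2 read 53.9, 55.1 and 59.4 CPM against 135, 87.8 and 113 CPM, and fell by 1.00 ± 0.12 (FDR 4.48e-04). COL5A3, the least abundant chain of this type, read 4.25, 4.81 and 8.94 CPM against 19.1, 7.04 and 10.7 CPM. PD-L1 dish 3 lay above Vector dish 2, and COL5A3 was not called (log2 fold change -1.04 ± 0.41, FDR 0.182), except without Vector dish 2.

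COL11A1, a chain of the minor fibril collagen of cartilage, read 27.6, 30.1 and 30.4 CPM in PD-L1 dishes against 68.3, 36.7 and 49.8 CPM, and fell by 0.82 ± 0.19 (FDR 0.0295). Vector dish 2 was close above the PD-L1 dishes, and the call was lost without any 1 of the PD-L1 dishes or without Vector dish 3 (FDR 0.0707 to 0.203) and with the offset for GC content and length. COL11A2, its partner chain, had the opposite sign: 2.64, 2.90 and 3.11 CPM against 1.70, 1.96 and 2.80 CPM, with overlapping groups (log2 fold change 0.43 ± 0.22, FDR 0.255). COL24A1, a fibrillar chain of developing bone, was also not called, at 1.76, 1.85 and 2.36 CPM against 1.93, 1.17 and 1.35 CPM (FDR 0.348). COL27A1, a cartilage fibril chain, read 12.7, 13.5 and 12.4 CPM against 18.1, 15.8 and 14.6 CPM. Its groups did not overlap, the difference was small (-0.33 ± 0.11) and the FDR was 0.0837.

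Type III collagen, the partner of type I in vessel walls and soft tissue, was low and uneven across dishes. COL3A1 had 29, 21 and 89 counts in PD-L1 dishes and 287, 44 and 61 counts in Vector dishes. Vector dish 1 alone was high, PD-L1 dish 3 exceeded the other Vector dishes, and the 95% interval of the log2 fold change ran from -3.71 to 1.05 (FDR 0.462). COL2A1, the cartilage fibril collagen, had 2 to 7 counts a dish and was not tested.

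**Figure D2:**
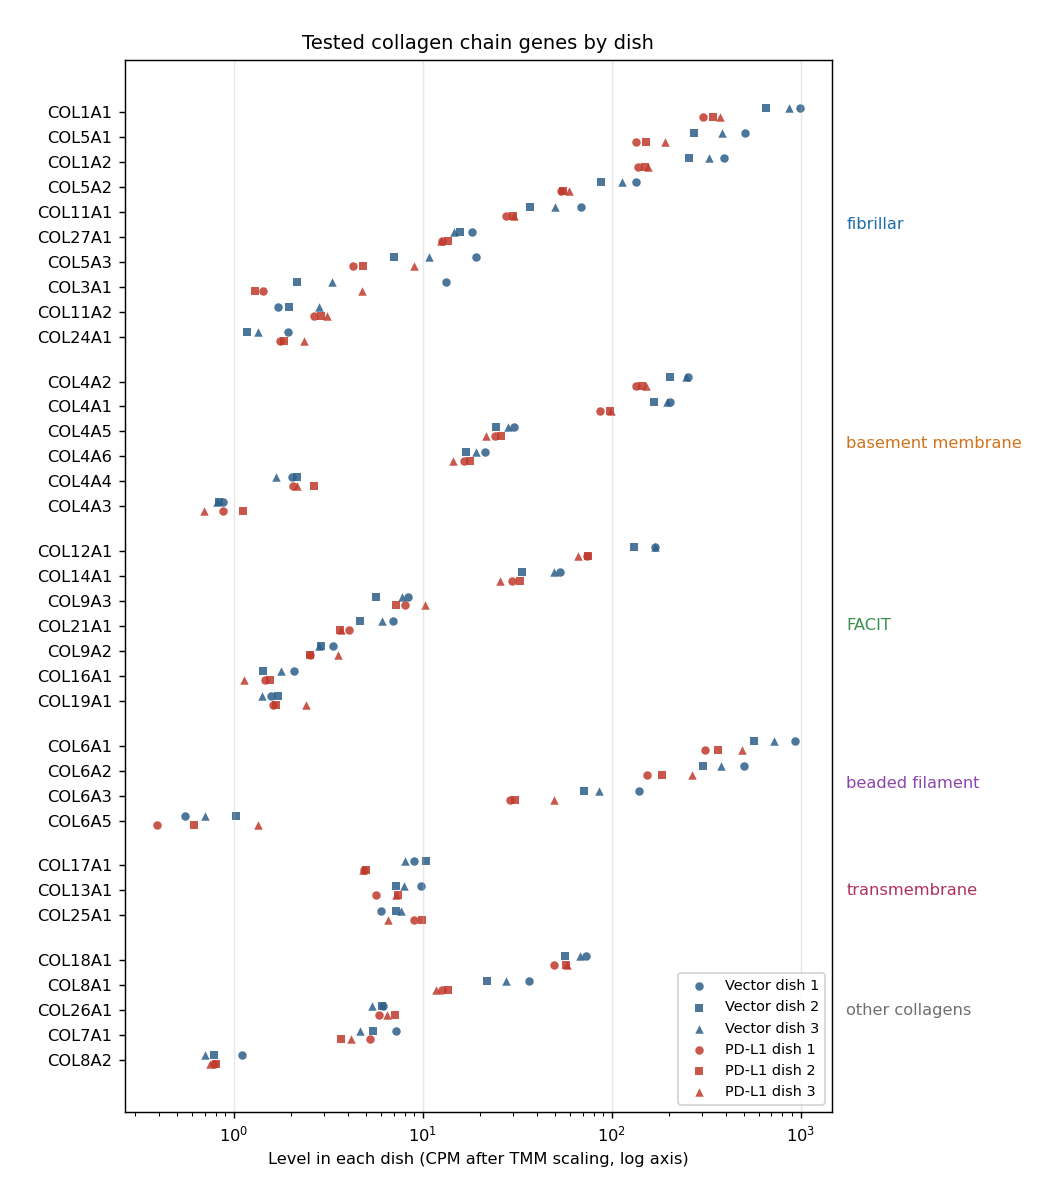
Level of each tested collagen gene in each of the 6 dishes (x axis, CPM on a log scale), with blue symbols for Vector and red for PD-L1 dishes. Each dish number has 1 symbol shape, and whether dishes of 1 number belong together is not known. COL1A1, COL4A1, COL12A1 and COL8A1 show separate groups, while COL4A5, COL13A1 and COL9A3 overlap, and red triangles (PD-L1 dish 3) lie highest of the red symbols in 9 of the 10 fibrillar genes.

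All 6 basement membrane genes were tested, and the 2 that fell were the head-to-head pair COL4A1 and COL4A2. They encode the common type IV trimer found in nearly every basement membrane. COL4A1 read 86.4, 98.3 and 98.8 CPM in PD-L1 dishes and 204, 167 and 196 CPM in Vector dishes, a fall of 1.00 ± 0.09 on the log2 scale (FDR 3.21e-05). COL4A2 read 134, 145 and 151 CPM against 255, 203 and 247 CPM, and fell by 0.71 ± 0.09 (FDR 3.92e-04). Neither gene's groups overlapped, and both calls held with any 1 dish left out (largest FDR 5.84e-04 for COL4A1 and 0.00443 for COL4A2).

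The second pair, COL4A5 and COL4A6, was not called. These chains occur in the basement membranes of kidney and smooth muscle. COL4A5 read 24.0, 25.8 and 21.5 CPM in PD-L1 dishes and 30.5, 24.4 and 28.2 CPM in Vector dishes, with Vector dish 2 inside the PD-L1 range. The 95% interval of its log2 fold change was -0.45 to 0.0037 (FDR 0.219). COL4A6 read 16.4, 17.8 and 14.5 CPM against 21.4, 16.9 and 19.2 CPM, the same arrangement of dishes (interval -0.49 to 0.01, FDR 0.233). The third pair, COL4A3 and COL4A4 of the glomerular membrane, had 13 to 19 and 31 to 44 counts a dish and was not called (FDR 0.909 and 0.582).

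Of the 10 FACIT genes 7 were tested and 3 fell. COL12A1, which binds type I fibrils in tissues under load, had the smallest FDR among the collagens, equal to that of COL4A1. It read 74.2, 74.9 and 65.9 CPM in PD-L1 dishes and 169, 132 and 168 CPM in Vector dishes, and fell by 1.12 ± 0.10 (FDR 3.21e-05). The spread within either group was small beside the gap, and the largest FDR with any 1 dish left out was 5.84e-04. COL14A1, a related chain on fibril surfaces, read 29.7, 32.5 and 25.4 CPM against 53.4, 33.5 and 49.2 CPM (log2 fold change -0.64 ± 0.15, FDR 0.0220). COL21A1 was less abundant, at 4.05, 3.64 and 3.69 CPM against 6.95, 4.64 and 6.08 CPM (-0.63 ± 0.17, FDR 0.0375). In both genes Vector dish 2 was nearest to the PD-L1 dishes. The COL14A1 call held only when Vector dish 2 was the dish left out (FDR 0.00195, otherwise 0.0592 to 0.195). That of COL21A1 held without PD-L1 dish 3 (FDR 0.0243) or Vector dish 2 (0.0165) and was lost without any of the others (FDR 0.084 to 0.197) and with limma-voom.

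The type IX chains COL9A2 and COL9A3, which coat cartilage fibrils, and COL16A1 and COL19A1 were not called. COL9A3, the most abundant of them, read 8.05, 7.21 and 10.2 CPM for PD-L1 and 8.38, 5.67 and 7.75 CPM for Vector, with overlapping groups (FDR 0.450). COL22A1, a chain of tissue junctions, missed the count filter, with 6, 3 and 6 counts in PD-L1 dishes and 18, 8 and 21 counts in Vector dishes, which did not overlap. COL9A1 had 2 to 7 counts a dish and COL20A1 had 0 to 2.

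Of the 5 beaded filament genes 4 were tested and 2 fell. The type summed to 1235.0 of the 3814.9 CPM of all collagens in Vector dishes, and to 626 of 1886.2 CPM in PD-L1 dishes. COL6A1 read 312, 367 and 487 CPM in PD-L1 dishes and 933, 566 and 725 CPM in Vector dishes, and fell by 0.93 ± 0.21 (FDR 0.0322). COL6A2 read 153, 183 and 266 CPM against 502, 302 and 378 CPM, and fell by 0.97 ± 0.24 (FDR 0.0488). In both, the dishes of a group differed widely while the groups stayed apart. Both calls were lost without any 1 of the PD-L1 dishes or without Vector dish 3 (FDR 0.0778 to 0.211 and 0.0771 to 0.286), so that 0 beaded filament genes were called without PD-L1 dish 3, although both folds were larger there (-1.13 and -1.23). Neither was called with no low-count filter, and COL6A2 was not called with the GC offset or upper-quartile scaling.

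COL6A3, the third chain of the common type VI molecule, had the most negative estimate of all collagens but missed the threshold. It read 28.9, 30.6 and 49.5 CPM in PD-L1 dishes and 140, 70.8 and 85.9 CPM in Vector dishes, with no overlap (log2 fold change -1.45 ± 0.35, 95% interval -2.32 to -0.57, FDR 0.0718). Vector dish 1 was far above the other dishes, and without it the estimate was -1.11 and the FDR 0.00733. COL6A3 was also called without Vector dish 2, with DESeq2, with limma-voom and among genes of at least 5 CPM. COL6A5, which can take the place of COL6A3, had 8 to 25 counts a dish and no call (FDR 0.970), and COL6A6 had 1 to 7 counts a dish.

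Of 4 transmembrane collagens 3 were tested. COL17A1, the hemidesmosome collagen that ties epithelial cells to the basement membrane, read 4.88, 4.99 and 4.82 CPM in PD-L1 dishes and 9.02, 10.4 and 8.02 CPM in Vector dishes. It fell by 0.90 ± 0.14 (FDR 0.00146), the dishes of each group were close together, and the call held with any 1 dish left out (largest FDR 0.00898). COL13A1, found at neuromuscular junctions, read 5.61, 7.33 and 7.17 CPM against 9.80, 7.19 and 7.91 CPM and overlapped (FDR 0.242). COL25A1, a neuronal transmembrane collagen, read 8.93, 9.92 and 6.53 CPM against 5.98, 7.24 and 7.64 CPM. PD-L1 dish 3 lay inside the Vector range, the log2 fold change was 0.28 (95% interval -0.07 to 0.64, FDR 0.321), and without that dish COL25A1 was called higher, the only collagen called higher in any analysis run. COL23A1 had 0 to 3 counts a dish.

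Among the 8 other collagens 5 were tested and COL8A1 alone fell. It encodes a chain of type VIII collagen, a short-chain network collagen of vessels and cornea. COL8A1 read 12.5, 13.6 and 11.7 CPM in PD-L1 dishes and 36.3, 21.7 and 27.4 CPM in Vector dishes, a fall of 1.18 ± 0.16 (FDR 6.08e-04) with no overlap. COL18A1, the heparan sulfate collagen of basement membranes that carries endostatin, was abundant and not called: 49.4, 57.1 and 58.2 CPM against 73.0, 56.2 and 68.2 CPM (log2 fold change -0.26, interval -0.48 to -0.04, FDR 0.135). Vector dish 2 lay inside the PD-L1 range. COL18A1 was called lower without PD-L1 dish 3 (FDR 0.0429), without Vector dish 2 (0.0458) and with no low-count filter, and its estimate was -0.035 with the GC and length offset. COL7A1 of anchoring fibrils, COL26A1 and COL8A2 were not called (FDR 0.238, 0.617 and 0.798). COL10A1, COL15A1 and COL28A1 had at most 14 counts in any dish and were not tested.

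By summed level, Vector dishes exceeded PD-L1 dishes most for the fibrillar type. The sums were 1752.5 ± 408 against 759 ± 82.3 CPM for fibrillar (ratio 2.31), 1235.0 ± 319.6 against 626 ± 159.8 CPM for beaded filament (1.97), and 222 ± 34.8 against 120 ± 6.00 CPM for FACIT genes (1.85). They were 473 ± 51.9 against 281 ± 15.3 CPM for basement membrane (1.68), 108 ± 17.0 against 79.7 ± 4.64 CPM for the other collagens (1.35), and 24.5 ± 0.73 against 20.1 ± 1.96 CPM for transmembrane genes (1.22; SD, n = 3 throughout). Each sum is led by its most abundant genes, and differences between types were not tested.

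**Figure D3:**
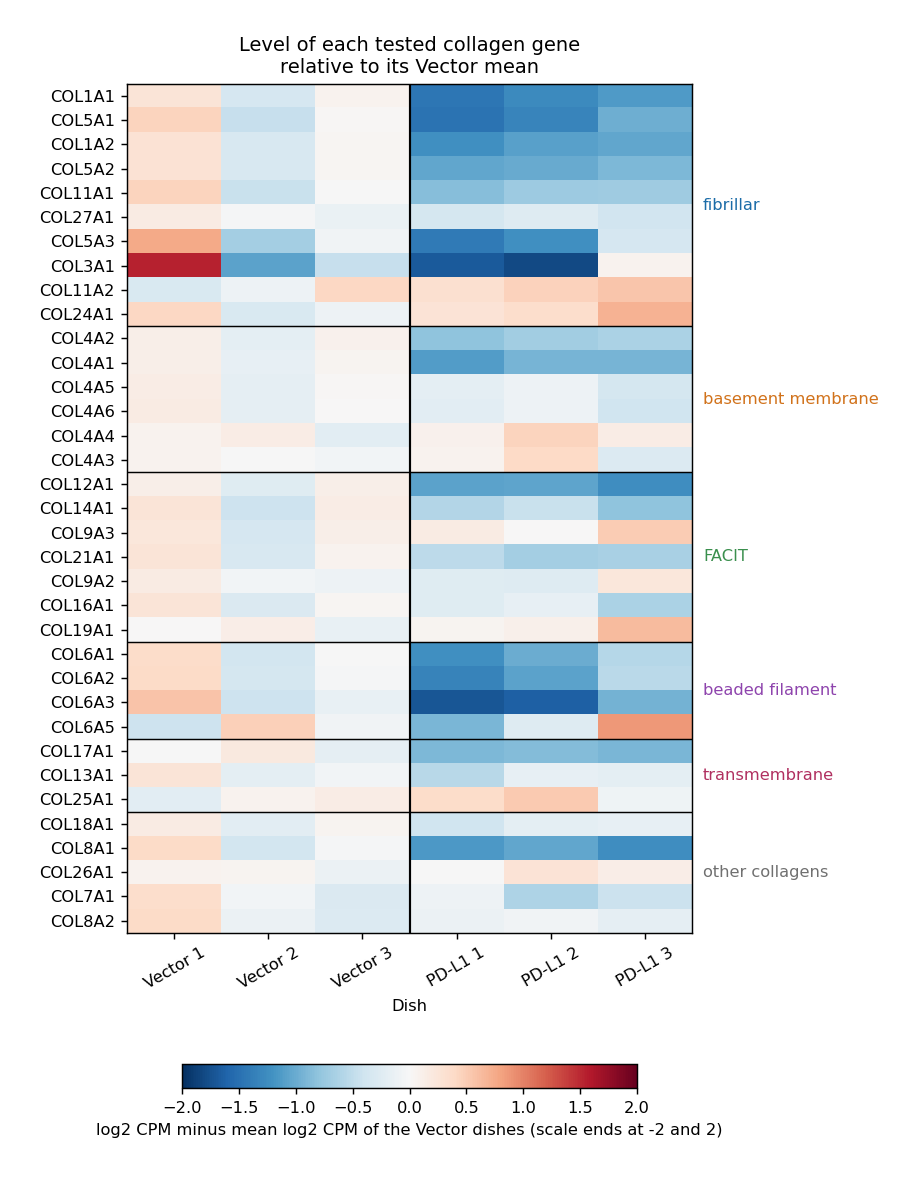
Each tested collagen gene (rows, grouped by type) in each dish (columns), coloured by log2 CPM minus the mean log2 CPM of the 3 Vector dishes, from -2 (blue) to 2 (red). Blue cells fill the PD-L1 columns for the rows that fell, such as COL1A1, COL4A1, COL12A1 and COL8A1, Vector dish 1 is the highest Vector dish in 29 of 35 rows, and Vector dish 2 is the lowest in 23.

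The dishes of a group also differed among themselves in a way that many collagens shared. Vector dish 1 was the highest Vector dish for 29 of 35 tested collagens (82.9%), against 35.3% of all tested genes. PD-L1 dish 3 was the highest PD-L1 dish for 19 of 35 (54.3%, against 41.8%): for 9 of 10 fibrillar and all 4 tested beaded filament genes, but for 2 of 6 basement membrane genes. In fibrillar genes the median log2 level relative to the Vector mean was -1.13, -1.04 and -0.55 in PD-L1 dishes 1 to 3, and 0.35, -0.33 and 0.01 in Vector dishes 1 to 3. In beaded filament genes it was -1.28, -1.03 and -0.56, and 0.37, -0.36 and -0.05. In FACIT genes the median was -0.24, -0.25 and -0.63 in PD-L1 dishes 1 to 3, but members went both ways: PD-L1 dish 3 was the highest PD-L1 dish for 3 of 7 and the lowest for 3 of 7.

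Calls were concentrated among abundant collagens. Of 11 genes with a mean of 50 CPM or more 9 fell (the exceptions were COL6A3 and COL18A1), where 8.71% of all genes in that range were called lower. Of 6 genes between 10 and 50 CPM 3 fell (7.56% of all genes), and of 18 genes under 10 CPM 2 fell (COL17A1 and COL21A1; 5.65% of all genes). Median log2 fold changes in these ranges were -0.998, -0.48 and -0.02, while the median standard error grew from 0.12 to 0.13 and 0.21. Across the 35 genes, Spearman's rho between mean CPM and log2 fold change was -0.67, with GC content 0.02 and with exon length -0.08. These genes share dishes and are not independent. Tested collagen genes were long (median exon length 6825 against 3535 bases) and GC-rich (55.4% against 48.4%), and an offset for GC content and length left 12 calls. With that offset the median log2 fold change of the tested collagens was -0.20, against -0.39 in the main fit.

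**Figure D4:**
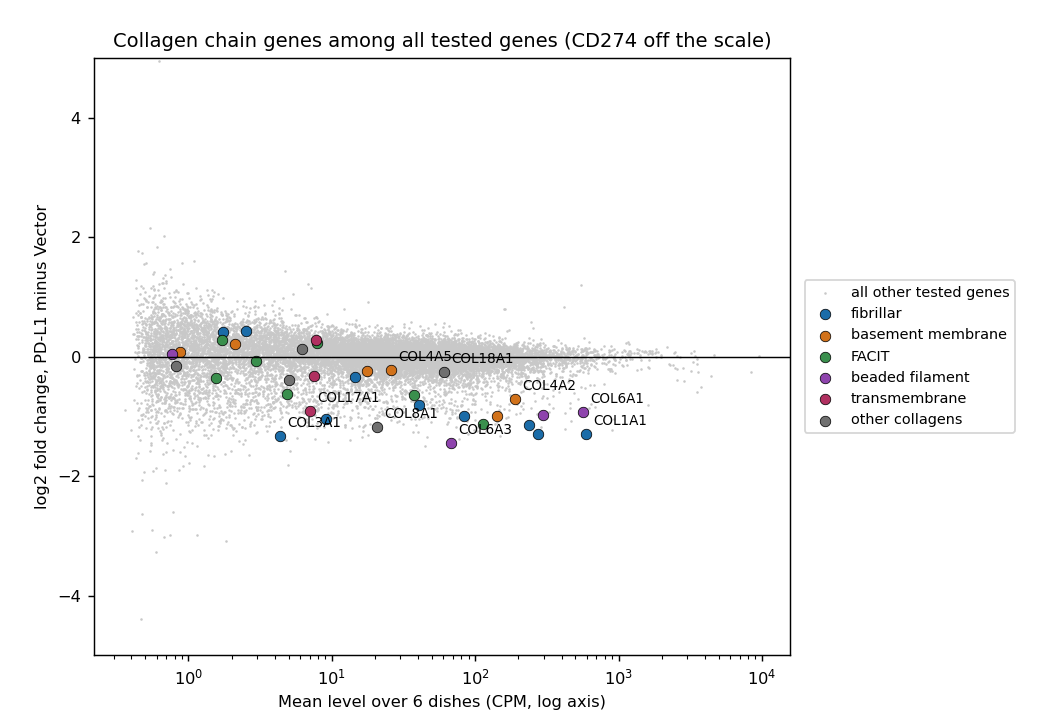
Log2 fold change (y axis, PD-L1 minus Vector) against mean level over 6 dishes (x axis, CPM, log scale) for all tested genes except CD274 (grey) and the 35 tested collagens (coloured by type). Of the 11 collagens at 50 CPM or more, 9 fell, while the 18 under 10 CPM have a median of -0.02.

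Levels of different genes were compared per kilobase of the longest principal transcript. In Vector dishes COL6A1 led at 175 CPM per kb, followed by COL1A1 at 124, COL6A2 at 114, COL1A2 at 60.1, COL5A1 at 45.9, COL4A2 at 36.2 and COL4A1 at 28.5. In PD-L1 dishes COL6A1 stood at 91.7 CPM per kb, COL6A2 at 58.0, COL1A1 at 50.6, COL1A2 at 27.3, COL4A2 at 22.1, COL5A1 at 18.8 and COL4A1 at 14.3. COL6A2 and COL4A2 thus stood 1 place higher there, above COL1A1 and COL5A1, and differences between neighbours in either order were not tested.

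Because the trimers need partner chains, the count ratio of chains of 1 type was compared in each dish for 13 pairs, by exact two-sided permutation tests. With 3 against 3 dishes these cannot give a p under 0.1, and p-values were adjusted over the 13 pairs. The 2 pairs that cross the type IV gene pairs were added after their values had been seen. Both are among the 13, so the adjusted p-values of the other pairs depend on their inclusion. COL1A1 to COL1A2 was 2.21, 2.27 and 2.42 in PD-L1 dishes and 2.53, 2.56 and 2.64 in Vector dishes. The groups did not overlap, and the log2 difference was -0.16 (exact p 0.1, adjusted 0.163). Per transcript length the mean ratio was 1.85 in PD-L1 and 2.07 in Vector dishes.

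COL4A1 to COL4A2 was 0.65, 0.68 and 0.65 in PD-L1 dishes against 0.80, 0.82 and 0.79 in Vector dishes, with dishes within each group far closer together than the groups (log2 difference -0.29, exact p 0.1, adjusted 0.163). COL4A5 to COL4A6 was 1.46, 1.45 and 1.49 against 1.43, 1.45 and 1.47, overlapping, with a log2 difference of 0.02 (exact p 0.5). Between the pairs, COL4A1 to COL4A5 was 3.60, 3.82 and 4.59 against 6.69, 6.83 and 6.94 (log2 difference -0.78, exact p 0.1). PD-L1 dish 3 was nearest to the Vector dishes there, and the groups did not overlap. COL4A2 to COL4A6 was 8.12, 8.13 and 10.5 against 11.9, 12.0 and 12.9 (-0.47, exact p 0.1). Both had an adjusted p of 0.163.

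COL6A1 to COL6A2 differed by 0.06 with overlapping groups (exact p 0.4), whereas COL6A2 to COL6A3 was 5.28, 5.99 and 5.37 in PD-L1 dishes against 3.58, 4.27 and 4.41 (0.44, exact p 0.1, adjusted 0.163). COL6A3 was thus a smaller part of the type VI chains in every PD-L1 dish. COL11A1 to COL11A2 was 10.5, 10.4 and 9.79 against 40.1, 18.8 and 17.8, the widest difference (-1.22, exact p 0.1, adjusted 0.163), on 37 to 58 COL11A2 counts a dish and with Vector dish 1 far above the other Vector dishes. COL8A1 to COL8A2 (-1.02) and COL9A2 to COL9A3 (-0.32) also showed no overlap, and the remaining pairs overlapped. The rarer chains had 13 to 24 (COL8A2) and 41 to 73 (COL9A2) counts a dish.

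**Figure D5:**
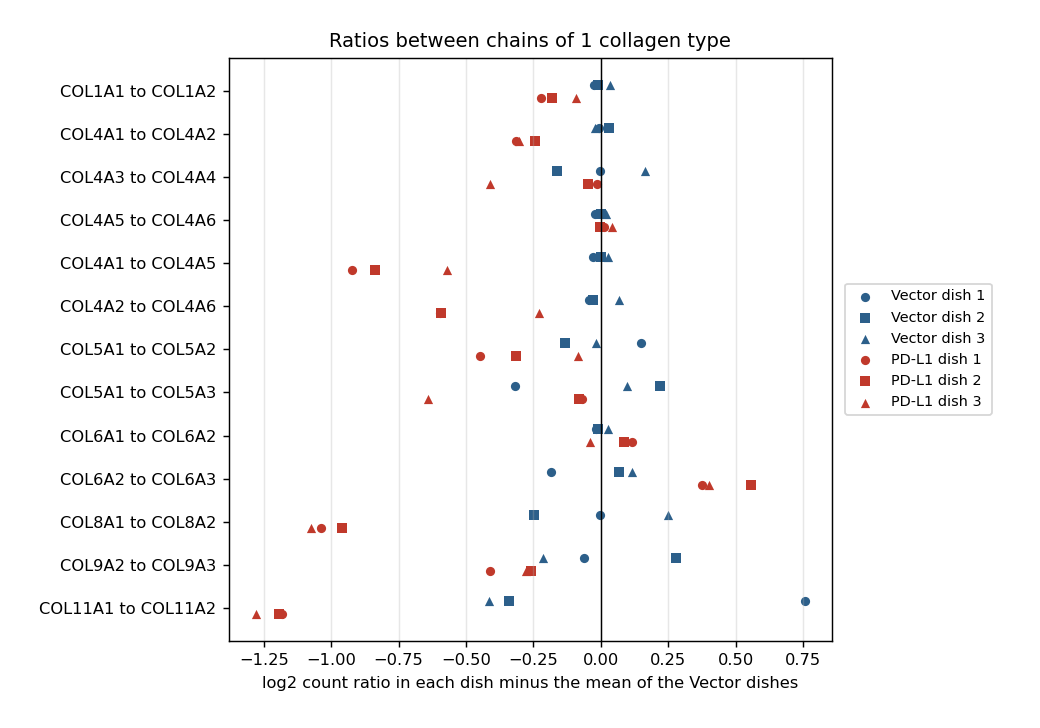
Log2 count ratio of chains of 1 collagen type in each dish (x axis, minus the mean of the Vector dishes), for 13 pairs, with blue Vector and red PD-L1 symbols. PD-L1 dishes lie left of all Vector dishes for COL4A1 to COL4A2 and COL11A1 to COL11A2 and right of them for COL6A2 to COL6A3, while COL4A5 to COL4A6 stays near 0 in all 6 dishes.

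The genes that build, bind and break down collagen were followed as a list of 45, of which 41 were tested. The list was chosen with earlier results of these data known, so its counts are a description and not a test of the list. Of these, 17 fell and 0 were called higher (0 also with DESeq2, limma-voom or an unadjusted p under 0.05), against 7.20% and 1.55% of all tested genes, with a median log2 fold change of -0.34. Chain modification, folding and export had 8 of 17 lower. COLGALT1, which adds galactose to hydroxylysine, fell from 261 ± 28.1 to 183 ± 15.9 CPM (log2 fold change -0.51, FDR 0.00364), and PLOD3, a lysyl hydroxylase, from 130 ± 12.7 to 90.4 ± 9.23 CPM (-0.52, FDR 0.00370). PPIB, FKBP10 and CRTAP, partners in proline isomerisation and hydroxylation, averaged 124, 372 and 248 CPM with PD-L1, 123, 379 and 261 CPM with vector, and were not called (FDR 0.957, 0.881 and 0.603).

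Of 8 genes for propeptide removal only BMP1, the C-proteinase of fibrillar procollagens, was called: it fell from 69.1 ± 9.46 to 38.4 ± 6.53 CPM (-0.85, FDR 9.02e-04). Cross-linking had 3 of 5 lower, among them LOXL2, from 220 ± 48.4 to 108 ± 16.8 CPM (-1.03, FDR 0.00279), and LOX, from 60.6 ± 7.56 to 42.6 ± 1.30 CPM (-0.51, FDR 0.00469), both lysyl oxidases. Receptors had 2 of 6 lower. ITGB1, the β1 subunit of collagen-binding integrins, fell from 343 ± 9.60 to 255 ± 0.85 CPM (-0.42, FDR 0.00193), and the collagen receptor kinase DDR2 averaged 82.2 CPM with PD-L1 against 80.4 CPM with vector (FDR 0.877). Breakdown had 3 of 5 lower and the most negative median (-0.66). MMP14, a membrane-bound collagenase, fell from 213 ± 39.7 to 84.5 ± 12.5 CPM (-1.33, FDR 1.31e-04), and MMP2, the gelatinase that it activates, from 137 ± 26.3 to 58.6 ± 8.10 CPM (-1.23, FDR 1.72e-04). For this list 18 were called lower and 1 higher without PD-L1 dish 3, a fit that called 2241 of all tested genes lower and 1271 higher. With all dishes those all-gene counts were 1139 and 245. Over all fits that left out 1 dish, between 8 and 18 of the list were called lower.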

How the data were processed

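Members follow from a rule on symbols, but that rule and the gene lists were chosen with earlier results of these data known. The submitters' processing notes name build hg19 and, as tools, HTSeq 0.6.0, STAR 2.5.1b and CASAVA 1.8. No source used here names the annotation or strand setting. Raw read counts per Ensembl gene were deposited for 6 dishes. The authors' normalized counts, a signal deposited for 28633 genes, differ from them by 1 factor per dish: multiplied back, 100% of values were whole within 0.01 and equal to the raw count. These recovered reads, tested as an alternative added later, gave 1139 lower and 245 higher calls, as did the raw counts.

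Groups and replicate numbers came from the sample titles. Raw counts of all genes were filtered (filterByExpr), scaled by TMM and tested with edgeR 4.0.16 (R 4.3.3; robust quasi-likelihood F test, no covariates). P-values were adjusted by Benjamini-Hochberg over 15818 genes, with an FDR under 0.05 counted as called. The common biological coefficient of variation was 8.6%. The fits were tested on simulated counts. Alternatives used DESeq2 1.42.0, limma 3.58.1 (voom), other scalings, filters and an FDR of 0.01, a GC and length offset (splines with 5 degrees of freedom), a replicate block and leaving out each dish. All collagen genes could be named, with CD274, and of the pathway list the 8 genes with the smallest FDR plus partners of direct use. GENCODE 29 gave lengths, GC content and overlaps. Exons of other genes overlap at most 4.37% of a tested collagen's exons (COL5A3, with a partner that had 0 reads). Smaller overlaps had expressed partners on the opposite strand: TCFL5 for COL9A3 (1.8%, 5377 partner reads) and LMBRD1 for COL19A1 (1.04%, 3538). Whether partner reads entered the counts of these low genes was not tested. Plots used Python 3.11.15 and matplotlib 3.10.9, and permutation tests used scipy 1.17.1. Depth was 15678989 to 22270509 counts per dish, so low genes carry wide counting error.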

Additional observations from a re-analysis of the deposited data

How the results depend on the processing

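Over 17 alternatives, 8 collagens were called lower in every one: COL1A1, COL1A2, COL5A2, COL4A1, COL4A2, COL12A1, COL17A1 and COL8A1. Leaving out 1 dish gave 8 to 18 collagens lower and 0 to 1 higher, against 14 and 0, with 3 to 6 fibrillar (against 5), 1 to 4 FACIT (3), 0 to 3 beaded filament (2) and 1 to 2 other collagens (1) lower, and 0 to 1 transmembrane higher. The pathway list had 8 to 18 lower (17) and 0 to 1 higher. Over 1.5 times fewer collagens were called without PD-L1 dish 1 (8), PD-L1 dish 2 (8) or Vector dish 3 (9). An FDR of 0.01 left 8 collagens, 3 fibrillar, 1 FACIT, 0 beaded filament and 8 pathway genes. Beaded filament calls were 1 with the GC and length offset or upper-quartile scaling and 0 with no low-count filter, which also called 2 other collagens. Single genes near 0 changed sign: COL9A2 (0.077) and COL8A2 (0.0017) with the GC and length offset, COL6A5 with limma-voom (-0.10), and with 1 dish left out COL9A2 (-0.26 to 0.013), COL4A3 (-0.082 to 0.23), COL6A5 (-0.62 to 0.39) and COL8A2 (-0.30 to 0.063). The cause was not tested. Over all tested genes, 1139 were lower and 245 higher. With the offset for GC and length these were 1337 and 903, and they were 1015 and 379 with upper-quartile scaling, and 2241 and 1271 without PD-L1 dish 3.

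Deviations of same-numbered dishes had correlations of -0.21, -0.05 and -0.19, and those of other pairs of dishes -0.08 to 0.23. With 3 dishes a group these values cannot decide whether dishes of 1 number were handled together. With the replicate number as a block, 14 collagens were lower, and COL6A5 changed sign (-0.0052). Depth limits what can be said of the 9 untested genes and of genes under 10 CPM.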
